A study of Canis lupus familiaris with 24 samples.

Results

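CD28, CTLA4 and ICOS are the 3 T cell costimulatory receptors of the CD28 family described here. They were found as every non-control probe whose RefSeq transcript identifier, without its version, belongs to dog CD28, CTLA4 or ICOS. This gave 4 of the 43603 probes and 3 of the 35908 identifiers on the array. CD28 had 1 probe (A_11_P0000019810), CTLA4 had 2 (A_11_P0000019827, called probe 1, and A_11_P053496, called probe 2), and ICOS had 1 (A_11_P050181), which is printed in 5 spots. In the RefSeq gene table used for names, CTLA4 and ICOS are next to each other, and only a pseudogene lies between CD28 and CTLA4. No source used here gives the genome build behind the array's own files.

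T cells need a second signal beside antigen. CD28 on the T cell gives it when it binds CD80 or CD86 on an antigen-presenting cell such as a B cell. CTLA4 is induced on activated T cells, is held at a high level by regulatory T cells, binds the same ligands more tightly and dampens the response. ICOS is induced after activation, binds its own ligand on B cells, and is a hallmark of the follicular helper T cells that assist B cells in lymph nodes. A malignant B cell is not a usual source of these receptors.

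The samples were fine-needle aspirates of peripheral lymph nodes. They came from 4 pet dogs in which B lymphocytes had become malignant (B-cell lymphoma), and each animal was sampled in a drug-sensitive and in a drug-resistant phase. Dog 1 was a Shih Tzu of 10 years (male), dog 2 a Doberman of 9 years (male), dog 3 a French Bulldog of 3 years (castrated male) and dog 4 a French Bulldog of 5 years (spayed female). No source used here gives the drugs or the time between the phases, and no sample was a healthy lymph node. With 3 one-colour arrays for each dog and phase there were 24 arrays in 8 groups. The labels leave it unsaid whether the 3 arrays share an aspirate, so p-values within a dog measure only the spread between arrays, which may be technical.

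Levels are processed signals on the log2 scale, set relative to each array's 75th percentile, which has the level 0. That percentile was 676 to 1117 intensity units, and the share of spots well above background was 71.0% to 80.9%. The labelled B cell tissue was checked on its markers: MS4A1 (CD20) and CD40 were the 2 of 14 listed B cell genes measured under a gene name, and both lay well above background on all 24 arrays. The arrays sat on 7 slides. All 3 resistant arrays of dog 4 sat on a slide of their own that was scanned on a later day than the other 21 arrays, so in dog 4 phase, slide and scan day cannot be told apart. A probe was called in a dog at an adjusted p under 0.05 (limma with Benjamini-Hochberg adjustment over all 34550 probes kept) and a change of at least 2-fold.

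CD28 and CTLA4 probe 1 were called lower in the resistant phase in dogs 1, 2 and 3, ICOS was so with signal above background in dogs 2 and 3, and no receptor probe was called lower in dog 4. The fitted values of ICOS in dog 1 and of CTLA4 probe 2 in dogs 1 and 3 also met the rule, but there ICOS and probe 2 were below background on all or nearly all arrays, so no weight is given to them. Of all probes, 7.76% were called lower and 3.55% higher in dog 1, 10.1% and 3.54% in dog 2, 5.5% and 1.26% in dog 3, and 1.57% and 3.77% in dog 4. Every resistant array of CD28 and of CTLA4 probe 1 lay below every sensitive array in dogs 1 to 3, as it did for 33.6%, 27.6% and 27.2% of all probes in these dogs. Of all probes, 1.43% (493) were called lower in each of dogs 1 to 3, and 0.394% (136) were so called with a change above 0 in dog 4. In dog 1 CTLA4 probe 1 was the 1 receptor probe of 4 still called with normexp background correction, with the authors' uncorrected values or with a floor under dim signals, and 2 were called with quantile normalisation. In dog 3 all 4 calls ended with the authors' uncorrected values and with normexp background correction. Both of these were also quantile normalised. Normexp added an offset of 50 intensity units, which by itself draws the changes of dim probes toward 0. With normexp the changes in dog 3 were -0.57 for CD28, -0.71 for CTLA4 probe 1, -0.16 for CTLA4 probe 2 and -0.28 for ICOS, each with an adjusted p under 0.05 and under 2-fold. Because these were bulk samples, fewer T cells and less RNA of the gene per cell cannot be told apart.

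**Figure D1:**
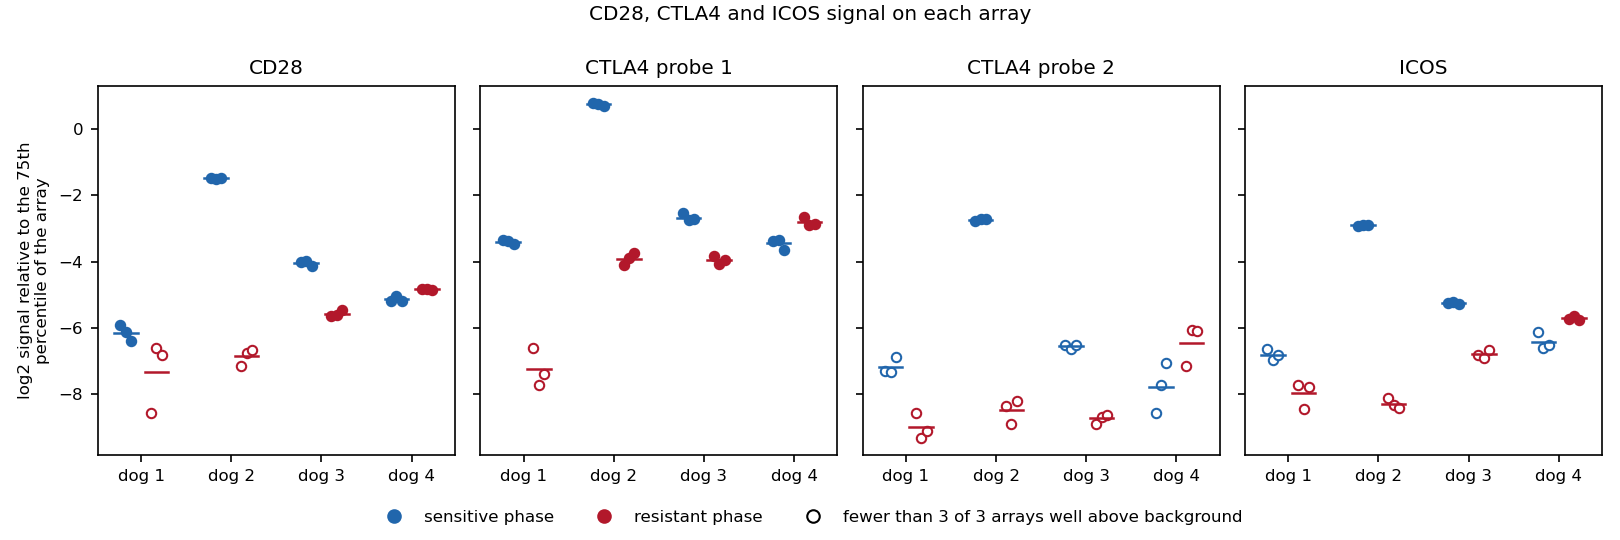
Level of each probe on each array (log2 signal relative to the array's 75th percentile), by dog, with a bar at the mean of 3 arrays; open points mark groups with fewer than 3 arrays well above background. The sensitive phase of dog 2 stands highest for every probe, with CTLA4 probe 1 at a mean of 0.75. CTLA4 probe 2 was kept only through those sensitive arrays. Dog 4 is the one dog whose resistant mean lies above its sensitive mean for every probe.

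CD28, the receptor that delivers the costimulatory signal, was well above background on 19 of the 24 arrays. In dog 2 its processed signal was 383, 363 and 402 in the sensitive phase and 6.66, 8.74 and 9.35 in the resistant phase. The resistant arrays were all below background in the scanner's test, so the difference is given as a bound. It sets the bright group's mean over a floor on each dim array. That floor is the lowest signal of any spot passing the test, or the dim probe's own signal where higher. Some spots above it failed the test, such as an ICOS spot of 9.49 on sensitive array 3 of dog 1 (lowest passing signal 8.57). Folds given as at least are therefore approximate. CD28 was at least 29.6-fold lower in the resistant phase of dog 2 (fitted change -5.36, SE 0.32, adjusted p = 5.77e-11, limma).

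In dog 3, where CD28 was measured on all 6 arrays, the levels were -4.01, -3.98 and -4.14 in the sensitive phase and -5.66, -5.61 and -5.46 in the resistant phase. The phases did not overlap, and CD28 fell 2.89-fold (change -1.53, SE 0.32, adjusted p = 0.000654, limma).

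In dog 1, CD28 was already dim in the sensitive phase, at -5.91, -6.11 and -6.41, and stood at -8.58, -6.61 and -6.81 in the resistant phase, where 1 of 3 arrays was well above background. The fitted fall was 2.28-fold (change -1.19, SE 0.32, adjusted p = 0.00438, limma). It rests on resistant array 1: without that array the change was -0.57 and was no longer called. It was also lost under quantile normalisation (-0.96, adjusted p = 0.0549), with normexp (-0.08), with the authors' uncorrected values (-0.13) and with a floor under dim signals (-0.41).

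In dog 4, CD28 stood at -5.19, -5.04 and -5.18 in the sensitive phase and at -4.84, -4.82 and -4.84 in the resistant phase. The arrays did not overlap, but the change of 0.30 (SE 0.32, adjusted p = 0.470, limma) did not pass the test. That SE is shared by all 8 groups, and the SD was 1.08 in the resistant phase of dog 1 beside 0.08 and 0.02 in dog 4. With a floor under dim signals the change was the same and the adjusted p was 0.0520 (limma). Of all probes, 32.1% had every resistant array of dog 4 above every sensitive one.

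CTLA4, the inhibitory receptor that competes for the ligands of CD28, was read by 2 probes. Probe 1 was well above background on 21 arrays. Probe 2 was so on 6, and it passed the filter on dim probes only through the sensitive arrays of dog 2. Most statements on CTLA4 therefore rest on probe 1.

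Probe 1 of CTLA4 was measured in both phases of dog 2, with processed signals of 1835, 1764 and 1816 in the sensitive phase and 55.3, 63.8 and 70.4 in the resistant phase. This was a 25.3-fold fall (change -4.66, SE 0.18, adjusted p = 1.12e-13, limma). The spread between arrays of a group was small beside it, with SDs of 0.04 and 0.17 on the log2 scale. Probe 2 stood at -2.79, -2.71 and -2.71 in the sensitive phase, at least 12.5-fold above the resistant phase, where all arrays were below background. As it was kept through those sensitive arrays, this is a description with no test.

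In dog 1, CTLA4 probe 1 stood at -3.36, -3.39 and -3.47 in the sensitive phase and at -6.61, -7.71 and -7.40 in the resistant phase. All 3 sensitive and none of the 3 resistant arrays were well above background. CTLA4 was at least 9.73-fold lower in the resistant phase (fitted change -3.84, SE 0.18, adjusted p = 3.24e-12, limma). With normexp correction the change was -1.07, and it was still called. Probe 2 was below background on all 6 arrays of dog 1. Its change of -1.82 passed the test (adjusted p = 9.94e-05, limma), but no fold is given for signals that were below background in both phases. With a floor under dim signals it was -0.19 and not called.

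In dog 3, CTLA4 probe 1 fell 2.44-fold, from -2.55, -2.76 and -2.72 to -3.84, -4.08 and -3.95 (change -1.28, SE 0.18, adjusted p = 1.13e-05, limma). Probe 2 changed by -2.18 (SE 0.32, adjusted p = 1.76e-05, limma), with 1 of 3 sensitive and none of the resistant arrays well above background. No fold is given for it, and with a floor it was -0.06 and not called.

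In dog 4, CTLA4 probe 1 stood at -3.38, -3.35 and -3.64 in the sensitive phase and at -2.67, -2.90 and -2.86 in the resistant phase, all 6 arrays being well above background. The change was 0.64 (SE 0.18, adjusted p = 0.00736, limma), or 1.56-fold, which is under the 2-fold that a call needs. At any size, 26.5% of all probes passed the adjusted p with a higher level in this dog. Probe 2 was called higher in dog 4 (change 1.34, SE 0.32, adjusted p = 0.00225, limma), as were 3.77% of all probes. Its arrays overlapped between the phases, none of the sensitive and 2 of the resistant arrays were above background, and the change was 0.94 and not called without sensitive array 1. It was not called with quantile normalisation (0.82) or a floor (0.24) either.

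ICOS, the induced costimulatory receptor of helper T cells, was well above background on 10 arrays by the majority of its unmarked spots. In the sensitive phase of dog 2 the levels were -2.93, -2.91 and -2.90, and in the resistant phase -8.13, -8.34 and -8.43. Every resistant array was below background, and ICOS was at least 11.0-fold lower (fitted change -5.38, SE 0.15, adjusted p = 1.12e-15, limma). In dog 3 it stood at -5.25, -5.21 and -5.29 and then at -6.81, -6.91 and -6.66. The resistant arrays were again below background, and the fall was at least 2.29-fold (fitted change -1.55, SE 0.15, adjusted p = 1.57e-07, limma).

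ICOS was below background on all 6 arrays of dog 1, where its change of -1.17 (SE 0.15, adjusted p = 3.92e-06, limma) carries no fold. That call ended without resistant array 2 (-0.94), within the slide that held both phases (-0.90), with the slide as a block (-0.90) and with arrays scaled on their median (-0.99) or by quantiles (-0.80), and with a floor under dim signals it was -0.20. In dog 4, ICOS stood at -6.12, -6.61 and -6.52 in the sensitive phase, with 1 array above background, and at -5.74, -5.64 and -5.76 in the resistant phase, with all 3 above. The fitted change of 0.71 (SE 0.15, adjusted p = 0.00106, limma) was 1.63-fold and under the size that a call needs. At any size, 26.5% of all probes passed with a higher level in dog 4. The ICOS change did not pass in limma with quantile normalisation (0.40, adjusted p = 0.0595), normexp (0.06, adjusted p = 0.0953) or the authors' values (0.07, adjusted p = 0.134). It did pass with median scaling (0.65) and with a floor (0.54).

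**Figure D2:**
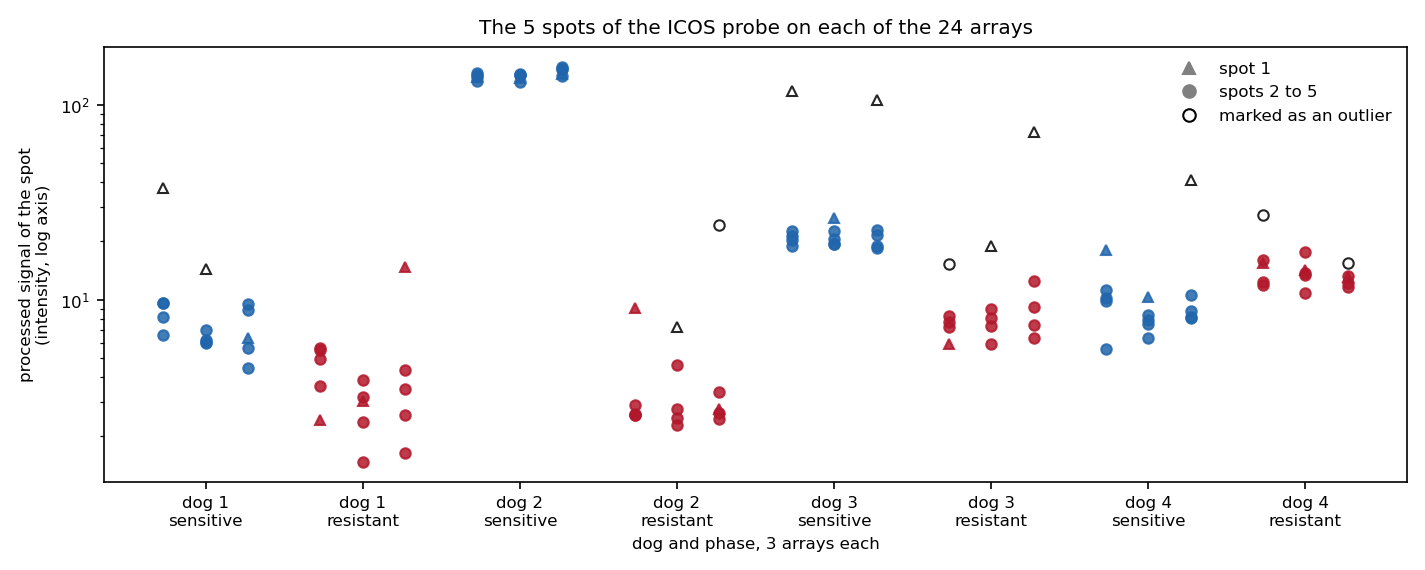
Processed signal (intensity, log axis) of each of the 5 ICOS spots on the 24 arrays, by dog and phase; triangles are spot 1, and open symbols were marked as outliers by the scanner software and left out. Spot 1 lay above the highest of the other 4 spots on 13 arrays and was marked on 8, while the sensitive arrays of dog 2 held all spots close together.

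The 5 ICOS spots allow a check within the array. Across the 24 arrays, 12 of the 120 spots were marked as outliers, 8 of them at spot 1. Spot 1 exceeded the highest of the other 4 on 13 arrays and lay over 2 times their median on 10, by up to 8.72 times. On 2 of those 10 arrays it was not marked and stayed in the mean. Leaving spot 1 out on every array changed no ICOS call in any dog.

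The levels of the 3 receptors were also compared between groups. The sensitive phase of dog 2 was highest for CD28, CTLA4 probe 1 and ICOS and overlapped no other group. CTLA4 probe 2 was highest there too, but it was kept only through those arrays. The share of all probes with such a highest group was not counted. For CD28 the sensitive phase of dog 2 was followed by the sensitive phase of dog 3 (-4.04 ± 0.08, SD, n = 3), the resistant phase of dog 4 (-4.83 ± 0.02) and the sensitive phase of dog 4 (-5.14 ± 0.08). The resistant phases of dog 2 (-6.85 ± 0.26) and dog 1 (-7.33 ± 1.08) were dimmest and overlapped; no other neighbours in the order did. For CTLA4 probe 1 the sensitive phase of dog 3 (-2.67 ± 0.11) and the resistant phase of dog 4 (-2.81 ± 0.13) overlapped, as did the sensitive phases of dogs 1 and 4, and the resistant phases of dogs 2 and 3. The resistant phase of dog 1 (-7.24 ± 0.57) lay apart at the bottom. It had no array above background, so its level is a bound, which lies below the resistant phase of dog 3 (-3.96 ± 0.12, all 3 arrays above background). For CD28 the resistant phase of dog 2 also had no array above background, and it has no measured place below its neighbour. ICOS had 4 of 8 groups with no array above background (both phases of dog 1 and the resistant phases of dogs 2 and 3), and these have no order. Above them the order was the sensitive phases of dogs 2 and 3 (-5.25 ± 0.04), then the resistant phase of dog 4 (-5.71 ± 0.06), without overlap. The sensitive phase of dog 4 (-6.42 ± 0.26) came below these. It had 1 of 3 arrays above background, so it has no measured place above the dim groups.

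Across the 8 group means, CD28 and CTLA4 probe 1 had a Pearson r of 0.92, and of 0.88 without dog 2. This is a description over means that share dogs and arrays, and 1 mean of each probe lay below background. With 4 of its 8 means below background, ICOS is given no such value here.

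Whether CD28 and CTLA4 moved by the same amount was read from the difference between CTLA4 probe 1 and CD28 on the same array, in the dogs where both were above background on all arrays. It changed by 0.25 in dog 3 and by 0.34 in dog 4, and the phases did not overlap in either. These differences were not tested. The SE of the CD28 change, 0.32, comes from 1 spread shared by all 8 groups. The SD of CD28 was 1.08 in the resistant phase of dog 1 and 0.02 to 0.10 in the groups of dogs 3 and 4, so that SE does not measure their spread. The share of other probe pairs without overlap was not counted. For dog 4, phase cannot be told apart from slide and scan day. In dogs 1 and 2 at least one of the probes was below background, so the size of the difference was not measured.

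Tested over the 4 dogs together, no receptor passed. The mean change was -2.29 for CTLA4 probe 1 (SE 0.94, adjusted p = 0.830), -1.95 for CD28 (SE 0.93, adjusted p = 0.846), -2.10 for CTLA4 probe 2 (SE 1.12, adjusted p = 0.846) and -1.85 for ICOS (SE 0.99, adjusted p = 0.846), each lower in 3 of 4 dogs (limma on dog means, n = 4). Dog 2 carried much of these means: without it they were -1.49, -0.81, -0.89 and -0.67 in the same order. CTLA4 probe 2 was kept only through the sensitive arrays of dog 2, so no weight is given to its mean. The counts of lower dogs include ICOS in dog 1 and probe 2 in dogs 1 and 3, below background on all or nearly all arrays. No probe on the array passed the test over dogs (0%, 0 of 34550). At an unadjusted p under 0.05 there were 2129, and limma on single arrays with the group as a random block called 2160, CTLA4 probe 1 among them (adjusted p = 0.0168). That fit takes arrays that may be technical as observations, with a shared correlation for all probes. Its p-values therefore do not rest on dogs as replicates.

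The change differed between dogs for CD28, CTLA4 probe 1 and ICOS in limma's test of the dog-by-phase interaction (adjusted p = 2.10e-08, 6.08e-12 and 2.70e-13). CTLA4 probe 2 also passed (adjusted p = 1.56e-09, limma). It was kept only through the sensitive arrays of dog 2, so no weight is given to that value. In all, 80.5% of the probes passed that test.

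Slides that held both phases gave values within a batch. On slide 1 (dog 1, 1 resistant array) CD28 changed by -2.44 and CTLA4 probe 1 by -3.21. That array is resistant array 1, on which the CD28 call in dog 1 rests, so the slide gives CD28 no separate check. On slide 3 (dog 2, 1 sensitive array) the changes were -5.38 for CD28, -4.61 for CTLA4 probe 1 and -5.39 for ICOS. On slide 4 (dog 3, 1 resistant array) they were -1.61, -1.17 and -1.56. CTLA4 probe 2 changed by -1.41, -5.78 and -2.34 on slides 1, 3 and 4. No slide held both phases of dog 4.

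**Figure D3:**
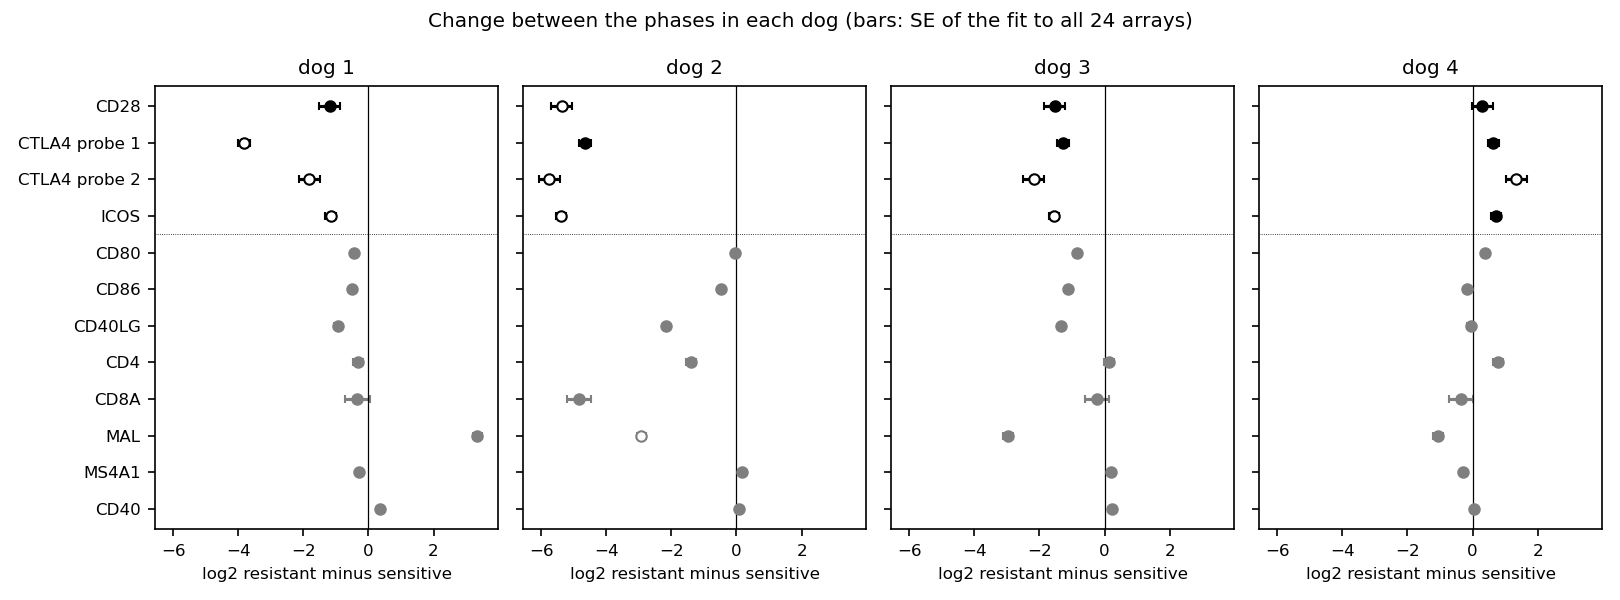
Change from the sensitive to the resistant phase (log2, bars are SE of the fit to 24 arrays) in each dog for the 4 receptor probes (black) and for ligands, T cell and B cell genes (grey); open symbols have no array above background in at least one phase. The receptor probes lie left of 0 in dogs 1 to 3 and right of 0 in dog 4, while the B cell genes MS4A1 and CD40 stay within 0.35 of 0 in every dog on the brightest probe of each, which is the one drawn for grey genes.

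The ligands CD80 and CD86, expressed by B cells and other antigen-presenting cells, were measured; the ICOS ligand was not matched to a name. On its brighter probe CD80 changed by -0.44, -0.05, -0.84 and 0.37 in dogs 1 to 4 and was not called in any. Its other probe was called lower in dog 1 (-1.31, SE 0.08, adjusted p = 1.15e-10, limma). CD86 changed by -0.51, -0.48, -1.12 and -0.17 and was called lower in dog 3 alone (SE 0.03, adjusted p = 6.01e-16, limma). Of 28 listed signalling genes downstream of the family, NFKB1 and the phosphatase subunit PPP2CA were measured by name, and neither was called in any dog. None of 6 listed relatives and their ligands was matched to a name on the array.

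Of 19 listed T cell genes, 3 were measured by name: CD4, the helper co-receptor, CD8A, the cytotoxic co-receptor, and MAL, a membrane protein of T cells. All 3 were called lower in dog 2, by -1.39 for CD4, -4.84 for CD8A and -2.92 for MAL. MAL was at least 5.04-fold lower there. In dogs 1 and 3, where the receptors were called lower, CD4 changed by -0.33 and 0.13 and was not called (adjusted p = 0.0678 and 0.493, limma). CD8A changed by -0.34 and -0.23 on its brighter probe and was not called, whereas its other probe was called lower in both (-1.71 and -1.56). On the resistant arrays of dog 3 the brighter probe scattered, at -4.93, -2.57 and -3.23 (SD 1.22), so its change there was poorly measured. In dog 4 that second CD8A probe was also called lower (-1.03), and CD4 changed by 0.79 without a call. MAL was called higher in dog 1 (3.35) and lower in dogs 3 and 4 (-2.96 and -1.06). The summed level of the 3 genes, relative to the 75th percentile, ranged from 0.276 to 0.350 in the sensitive and 0.324 to 0.335 in the resistant phase of dog 1, from 2.36 to 2.50 and 0.200 to 0.223 in dog 2, from 0.504 to 0.530 and 0.249 to 0.373 in dog 3, and from 0.300 to 0.346 and 0.334 to 0.377 in dog 4. The part of T cell number in the receptor changes was not tested.

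Of the 16 listed helper T cell genes, 6 were measured. CD40LG, the helper T cell ligand of CD40, changed by -0.94, -2.16, -1.32 and -0.06 and was called lower in dogs 2 and 3. Its other probe, below background on all arrays of dog 1, was called lower in dogs 1 to 3 (-1.04, -2.19 and -1.16) and changed by 0.30 in dog 4. IL21, a cytokine of follicular helper T cells, was above background on all 3 arrays in the sensitive phase of dog 2 alone, and was at least 85.6-fold lower in that dog's resistant phase. IFNG was above background on no array outside the sensitive phase of dog 2 and was at least 11.7-fold lower in that dog's resistant phase. Both genes were kept only through those sensitive arrays, so these falls are descriptions with no test. IL2, IL5 and IL10 were not called in any dog. Of 13 listed regulatory T cell genes, IL2RA and CCR4 were measured, and 1 call was made: IL2RA was lower in dog 4 (-1.14).

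Markers of other cells moved in the same samples. Each gene is counted on its brightest probe unless stated. KLRD1 (CD94) and CCL5, the 2 measured of 13 NK and cytotoxic genes, changed by -1.56 and -2.91 in dog 1, by -6.42 and -6.23 in dog 2, and by -1.48 and -0.88 in dog 3, all called but the last; in dog 4 the changes were -0.03 and 0.30. Their summed level ranged from 36.0 to 37.0 in the sensitive phase of dog 2, and from 0.457 to 0.510 in its resistant phase. Elsewhere it lay between 0.188 and 1.40, and both genes were above background in every group. Of 8 measured stroma genes out of 9 listed, 3, 6, 6 and 2 were called lower in dogs 1 to 4, and CCL19 higher in dog 1. Probes of COL1A1, COL1A2 and DCN disagreed; counting only genes with every probe called lower, the numbers were 2, 3, 4 and 2. Their summed level ranged from 8.46 to 8.91 and then 2.69 to 2.97 in dog 2, and from 15.3 to 15.7 and then 4.87 to 5.09 in dog 3. Of 4 measured neutrophil genes, 3 were called lower in dogs 1 and 3, ELANE higher in dog 1 and 2 higher in dog 2. The 3 probes of MMP9 disagreed, and 1 of them was called higher in dog 4 (2.71). Of the macrophage genes CD163 and FCGR1A, 1 was called lower in dog 1, 1 higher in dog 2 and both lower in dog 3. Of 3 dendritic cell genes, 2, 1 and 1 were called lower in dogs 1 to 3, and CD1C higher in dog 3; another CD1C probe was called higher in dog 4 (1.08) and not in dog 3 (0.69). KDR, 1 of 2 endothelial genes, was called lower in dogs 1 to 3. None of the macrophage, dendritic cell, endothelial and neutrophil genes was called in dog 4 on its brightest probe. The B cell genes were not called in any dog on any probe (the other CD40 probe changed by 0.67 in dog 1), with a summed level between 54.7 and 82.8 over all arrays. The part of any of these cells in the receptor changes was not tested.

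Among 715 other genes with a name, the pattern over the 8 means most like that of CD28 was shown by DES (r = 0.96, 0.94 without dog 2), NPC2, IL18, GPR83 and SLC1A3. For CTLA4, on probe 1, it was shown by TRIB2 (r = 0.98, 0.96 without dog 2), SGSH, ANXA2, GPR83 and APP. For ICOS, whose means were below background in 4 of 8 groups, it was shown by KLRD1 (r = 0.96, 0.83 without dog 2), CCND1, NPC2, IL18 and SLC1A3. Without dog 2, r with CD28 was 0.76 for NPC2, 0.78 for IL18 and 0.77 for SLC1A3. With ICOS it was 0.69, 0.71 and 0.79 in the same order, and 0.93 for CCND1. With CTLA4 it was 0.95 for SGSH, 0.92 for ANXA2 and 0.84 for APP. As the highest of 715 over 8 means were picked, a high r follows in part from that choice. GPR83 had an r of 0.93 with CD28 and 0.94 with CTLA4, and 0.97 and 0.90 without dog 2. Its changes were -1.49, -4.92, -1.34 and -0.45 in dogs 1 to 4.

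**Figure D4:**
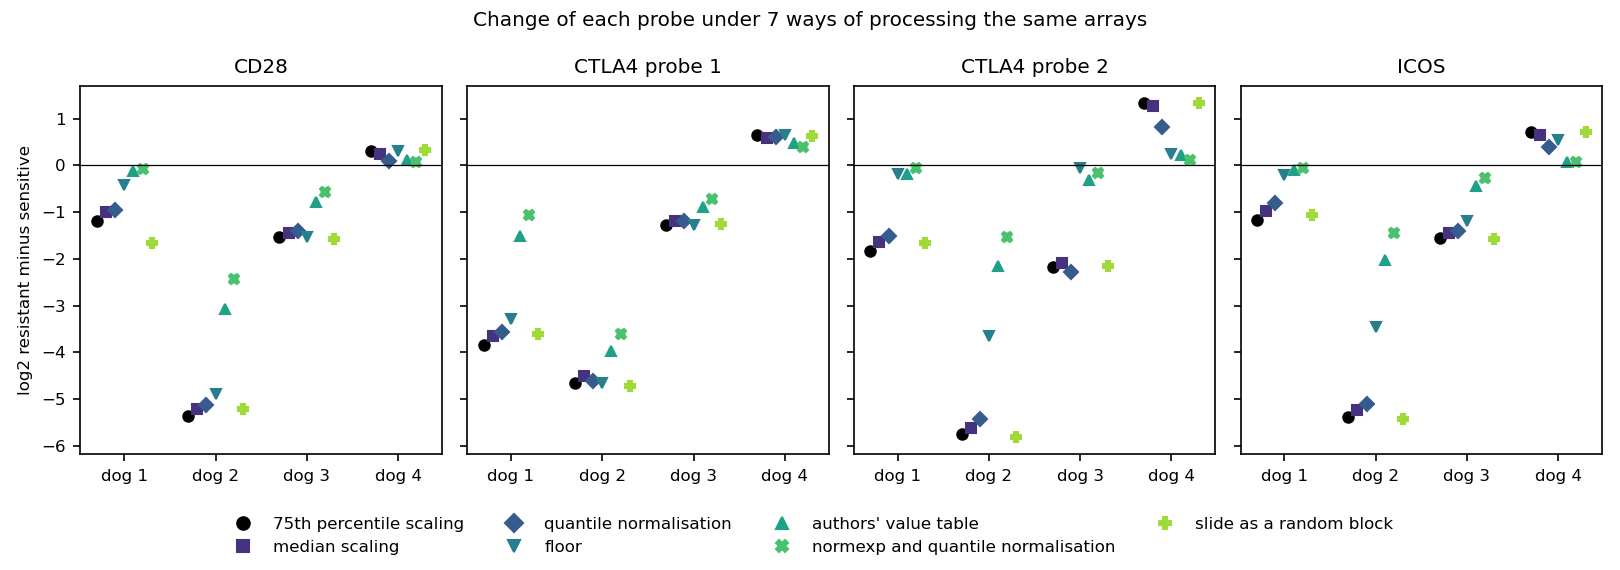
Change of each probe (log2, resistant minus sensitive) in each dog under 7 ways of processing the same arrays, 1 symbol each. Every value keeps its side of 0, and values for dim probes lie nearer 0 without background subtraction (the authors' value table), with normexp or with a floor, as for ICOS in dog 2, from -5.38 to -1.44. The authors' values were quantile normalised here, and normexp used an offset of 50, which by itself draws such values toward 0.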

How the data were processed

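Gene expression was measured on 24 one-colour Agilent arrays of 4 dogs. The authors deposited spot intensity from Agilent Feature Extraction (version 10.7.3.1, per the submitters' processing notes). The processed signal had its background subtracted, per the file headers. Their value table equalled the raw median intensity exactly (largest difference 0). Here log2 of the processed signal minus each array's 75th percentile was used, without control spots (1417 of 45220) and outlier spots (6 to 195 an array); 0 spots were saturated. Repeated spots were averaged. Any probe well above background on all 3 arrays of a dog and phase was kept (34550 of 43603). RefSeq names of the assembly UU_Cfam_GSD_1.0 matched 832 of 35908 identifiers.

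limma 3.58.1 in R 4.3.3 was fitted, two-sided, on dog means with the dog as a block, on 24 arrays in 8 groups within dogs, and as an interaction F-test. The fits were tested on simulated data first.

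The members, lists and tests were chosen with earlier results of these data known. By rule, the text names every receptor probe, all measured ligands, signalling and T cell genes, up to 4 genes of other lists, and the 5 genes most alike. Of 38 measured list genes 16 had several probes, which disagreed on a call in some dog for 8. The brightest stands for the gene unless stated. Alternatives were other scalings, background corrections, filters, probe rules, blocks and left-out arrays. Normexp was run with an offset of 50 and then quantile normalisation. The authors' value table was also quantile normalised, on the log2 scale. The floor on dim values and ICOS without its first spot were chosen after seeing the data.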

Additional observations from a re-analysis of the deposited data

Results flagged for a closer look

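The change between the phases differed between dogs for CD28, CTLA4 probe 1 and ICOS by the interaction test across all probes (limma). The adjusted p was 2.10e-08 for CD28, 6.08e-12 for CTLA4 probe 1 and 2.70e-13 for ICOS. CTLA4 probe 2 was flagged too (adjusted p = 1.56e-09, limma). It was kept only through the sensitive arrays of dog 2, so no weight is given to that flag. The changes ran from -5.36 in dog 2 to 0.30 in dog 4 for CD28, from -4.66 to 0.64 for CTLA4 probe 1, from -5.76 to 1.34 for CTLA4 probe 2 and from -5.38 to 0.71 for ICOS. Values of dim probes are fitted sizes, not measured ones. In dog 4 the phase cannot be told apart from slide and scan day. For CD8A on its brighter probe, 1 dog stood far from the others: dog 2, at -4.84, with a gap to the nearest dog of 0.972 of the whole range. For IL21, dog 2, at -8.12, lay apart by 0.852 of the range. IL21 was above background on all 3 arrays only in the sensitive phase of dog 2, through which it was kept, so the other dogs had almost no signal to change and the size in dog 2 is a bound (at least 85.6-fold lower). Chance flags about 1 in 20 such groups of 4, and 2 of 42 genes or probes were so marked.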

How the results depend on the processing

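The 13 calls of receptor probes in single dogs were recomputed 227 times: 197 values kept the call, 30 lost it and 0 turned direction. These counts are no measure of how firm the calls are. Without the filter on dim probes, with the brightest probe per gene or with the replicate block, the fitted changes stayed the same. The calls also include ICOS in dog 1 and CTLA4 probe 2 in dogs 1 and 3, given no weight above, and probe 2 in dog 2, kept through its sensitive arrays. Of 104 recomputed values with no call to keep, 1 gained one. Over all probes, normexp with quantile normalisation called 997, 1879, 714 and 223 in dogs 1 to 4, the authors' deposited values gave 1398, 2400, 964 and 324, and a filter for probes above background on all 24 arrays 1796, 2593, 1041 and 535, beside 3907, 4700, 2337 and 1844; no receptor probe passed that filter. In dog 4 no filter gave 3016 and a floor 1139. Across dogs, a random block on the group, which takes single arrays and not dogs as observations, gave 2160 calls, and leaving out any dog gave 0. Of the 4 receptor probes, 2 were called in dog 1 with quantile normalisation and 1 with normexp, the value table or a floor; 0 were called in dog 3 with normexp or the value table; and 0 in dog 4 with any of these 4. Without each array, 3 to 4 were called in dog 1 and 0 to 1 in dog 4. Scaling on the median moved the median of all probes in dog 1 from -0.05 to 0.13 and in dog 2 from 0.10 to 0.25, and the share of calls that were higher from 31.4% to 45.7% and from 26.0% to 37.4%; quantile normalisation moved it from 70.7% to 47.9% in dog 4. Same-numbered arrays of the phases had deviations correlating between -0.12 and 0.09, so the numbers do not pair them; the replicate block called 3870, 4656, 2317 and 1803 probes in dogs 1 to 4 and 27464 for the interaction, and changed no receptor call. The slide as a block could not be fitted in dog 4. Signal over background limits CTLA4 probe 2 and ICOS, below background on most arrays.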
